A study of Mus musculus with 30 samples.

Results

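Complement C1q and resident macrophage genes were followed here in B16 melanoma tumors that secreted an IFNα subtype. The 9 genes were taken by symbol, C1qa, C1qb, C1qc, Cd68, Apoe, Mertk, Gas6, Siglec1 and Cx3cr1, and all 9 were found among the 39676 gene identifiers counted and among the 15926 genes that passed a mean of 10 counts per tumor. The tumors came from adult C57BL/6 female mice injected under the skin with a B16 line, a mouse melanoma. B16-GFP tumors carried a retroviral vector for green fluorescent protein alone, while B16-IFNA4 and B16-IFNA9 tumors carried the same vector with the gene for IFNα4 or IFNα9, expressed from the retroviral promoter in the tumor cells. All 3 lines, the control included, also carried herpes simplex virus glycoprotein B and firefly luciferase, both of which are foreign proteins to the mouse. The lines were sorted for fluorescent cells. RNA of 30 whole tumors, 10 of each type, was sequenced 8 days after injection, and the labels call the 10 tumors of a type biological replicates.

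C1q is the recognition molecule of the classical complement pathway. Its A, B and C chains are encoded by neighboring genes, and in most tissues macrophages, rather than the liver, are its main source. Mertk, a receptor tyrosine kinase of the TAM family, and its bridging ligand Gas6 let macrophages take up dying cells, whereas Apoe carries the lipid that such cells release. Siglec1, a sialic acid-binding receptor of tissue macrophages, is also known as an interferon-inducible gene. Cd68 is a glycoprotein of the macrophage lysosome, and Cx3cr1 is the receptor for fractalkine on monocytes, tissue macrophages and some NK cells.

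The deposited read counts summed to between 14598517 and 19788383 per tumor, with a median of 16712970.5. B16-GFP tumor 7 stood apart. It was the lowest of the control tumors for all 9 genes, its 3 melanocyte genes summed to more CPM than in any other control tumor, and Ptprc, the pan-leukocyte gene, was at 19.5 CPM against 50.1 to 118 in the other 9. In whole tumors, fewer cells of a type and less RNA per cell cannot be told apart. Ptprc also differed with tumor type. It averaged 80.6 CPM in B16-GFP, 507 in B16-IFNA4 and 354 in B16-IFNA9 tumors, and the part of leukocyte number in the results was not tested.

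Of the 9 genes, 4 were higher in both IFNα types and 1, C1qc, was lower in B16-IFNA4. Against B16-GFP, B16-IFNA4 tumors had more Siglec1 (2.01-fold), Cx3cr1 (1.85-fold), Cd68 (1.45-fold) and Mertk (1.33-fold) RNA and less C1qc (0.668 times the control), by the quasi-likelihood test of edgeR, Benjamini-Hochberg adjusted over all genes. That is 4 genes called higher and 1 lower, where 31.3% of all genes tested were called higher and 34.1% lower, 65.4% in all. Beside these 4 and C1qc, DESeq2 called Gas6 higher, 6 of the 9 in place of 5. In B16-IFNA9 tumors the same 4 genes were called higher than in B16-GFP, and 0 of the 9 were called lower by edgeR or DESeq2 or had an unadjusted p below 0.05 in that direction. There, 26.9% of all genes were called higher and 28.9% lower, 55.7% in all. Both comparisons share the B16-GFP tumors. Between the 2 IFNα tumor types, 0 of the 9 genes were called by edgeR or by DESeq2, 1 gene (C1qa) had an unadjusted edgeR p below 0.05, and 10.5% of all genes were called higher and 7.25% lower in B16-IFNA9, 17.8% in all. For none of the 9 genes did the 10 tumors of a type lie wholly above or below those of another type, whereas 8.50% of all genes lay wholly above and 10.0% wholly below B16-GFP in the B16-IFNA4 tumors. In B16-IFNA9 these shares were 4.44% and 3.35% against B16-GFP and 2.08% and 0.741% against B16-IFNA4.

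**Figure D1:**
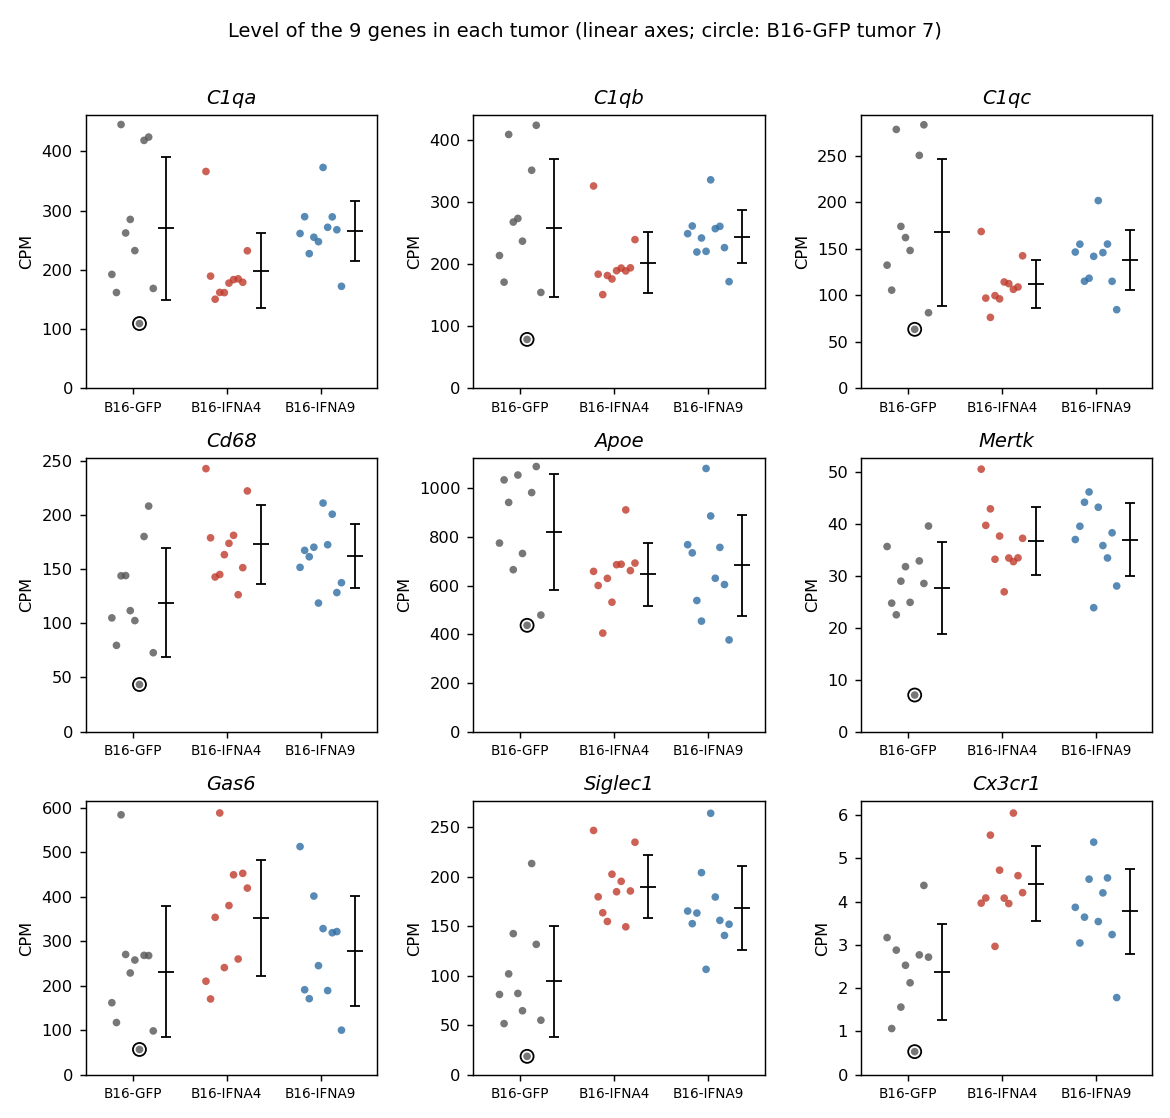
Level of each of the 9 genes as CPM, the count scaled to library size (linear axes from 0), in every tumor, with the mean and SD of the 10 tumors of each type beside the points. The circled B16-GFP tumor 7 is the lowest control tumor in all 9 panels, and Siglec1 of the 10 B16-IFNA4 tumors sits between 149 and 247 CPM, with 9 of the 10 controls below.

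The 3 C1q genes lie on the minus strand of chromosome 4 in the order C1qb (chr4:136880129-136886187), C1qc (chr4:136889804-136893065) and C1qa (chr4:136895917-136898803) in GRCm38, all protein-coding, with 3616 bases between the first 2 gene models and 2851 between the next. No 50-base stretch of their exons occurs in another gene, so reads of this length were not split between the chains. C1qa encodes the A chain. It was measured at 109 (lowest), 247 (median) and 445.5 CPM (highest) in B16-GFP, at 150, 181 and 366 CPM in B16-IFNA4 and at 172, 264.5 and 373 CPM in B16-IFNA9 tumors. The spread was widest in the controls, and the ranges overlapped throughout. The B16-IFNA4 minus B16-GFP difference was -0.44 ± 0.20 on the log2 scale (SE, adjusted p = 0.0542), which did not pass, and B16-IFNA9 minus B16-GFP was -0.02 ± 0.20 (adjusted p = 0.924). B16-IFNA9 exceeded B16-IFNA4 by 0.42 ± 0.20 (adjusted p = 0.155), with 9 of 10 B16-IFNA9 tumors above the B16-IFNA4 median, and the 95% interval of that ratio ran from 1.02 to 1.76. For C1qb, the B chain, the lowest, median and highest values were 78.8, 253 and 424 CPM in B16-GFP, 151, 189 and 326 CPM in B16-IFNA4 and 172, 246 and 336 CPM in B16-IFNA9 tumors. Its differences had the signs of those of C1qa and none was called (B16-IFNA4 minus B16-GFP -0.35 ± 0.20, adjusted p = 0.114). C1qc, the C chain, was the only one of the 3 chains to pass: its levels were 63.4, 155 and 284 CPM in B16-GFP, 76.3, 108 and 169 CPM in B16-IFNA4 and 84.6, 144 and 202 CPM in B16-IFNA9 tumors. It fell by 0.58 ± 0.21 on the log2 scale in B16-IFNA4 tumors (adjusted p = 0.0156), and 9 of 10 of these tumors were below the control median. The B16-IFNA9 minus B16-GFP difference of C1qc was -0.28 ± 0.21 (adjusted p = 0.247).

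Without B16-GFP tumor 7, an alternative listed with the others, C1qa (-0.52, adjusted p = 0.0154) and C1qb (-0.44, adjusted p = 0.0175) were also called lower in B16-IFNA4 than in B16-GFP, and C1qc stayed lower (-0.66, adjusted p = 0.00302). Leaving out B16-IFNA4 tumor 1, the tumor with the highest level of all 3 chains in its group, gave the lowest fitted values, -0.59 for C1qa and -0.45 for C1qb, and both were called there too. C1qc was called in all 30 fits that left out 1 tumor, C1qa in 9 and C1qb in 2. With the replicate number as a block, the C1qc call was lost (-0.50, adjusted p = 0.0582).

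The 3 chains were correlated within every tumor type. Over the 10 tumors of a type, Pearson's r between pairs of chains ran from 0.904 to 0.980 and Spearman's rho from 0.709 to 0.988. The lowest r was that of C1qa with C1qc in B16-IFNA4 tumors (r = 0.904, permutation p = 0.00025, adjusted p = 0.00102; rho = 0.709, permutation p = 0.0280, adjusted p = 0.0547), and its r was 0.842 without the 2 tumors farthest from the median of C1qc. In B16-IFNA9 tumors r fell further without 2 tumors (6 and 10), from 0.931 to 0.672 for C1qa with C1qc and from 0.939 to 0.725 for C1qb with C1qc. These were 9 of 45 relations computed, and p-values were adjusted over all 45. Per kilobase of exon, the C1qa level was 1.11 ± 0.15 times that of C1qb in B16-GFP (SD, n = 10), 1.01 ± 0.07 times in B16-IFNA4 and 1.13 ± 0.05 times in B16-IFNA9 tumors, whereas C1qa stood at 3.04 ± 0.34, 3.26 ± 0.38 and 3.61 ± 0.34 times the per-kilobase level of C1qc. The C1qc gene model has 1931 exon bases against 1040 for C1qa and 1088 for C1qb, all isoforms joined, so its per-kilobase level depends on which isoforms were made.

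The bases before the starts of C1q chains, which varied together within tumor types, are shown with those of Cd68, which varied with them within types but rose in B16-IFNA4 where C1qc fell. RefSeq gives starts for C1qb, C1qc and Cd68, and the 250 bases before each are printed from GRCm38.p6, minus strand, 5′ to 3′, for C1qb at chr4:136886201-136886450, C1qc at chr4:136892915-136893164 and Cd68 at chr11:69666171-69666420, with the letters GAGGAA, or their complement TTCCTC on the other strand, in capitals. GAGGAA is the core of the site of PU.1, the myeloid transcription factor encoded by Spi1.
C1qb: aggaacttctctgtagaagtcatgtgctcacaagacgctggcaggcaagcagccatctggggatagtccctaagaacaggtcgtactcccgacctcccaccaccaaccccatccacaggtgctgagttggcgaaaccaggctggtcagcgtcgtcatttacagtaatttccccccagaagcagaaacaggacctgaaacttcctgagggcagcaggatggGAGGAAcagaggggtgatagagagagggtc
C1qc: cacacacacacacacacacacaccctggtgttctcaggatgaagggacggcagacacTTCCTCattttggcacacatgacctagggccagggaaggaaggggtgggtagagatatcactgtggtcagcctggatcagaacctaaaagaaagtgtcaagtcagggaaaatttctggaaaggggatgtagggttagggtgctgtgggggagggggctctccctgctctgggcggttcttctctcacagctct
Cd68: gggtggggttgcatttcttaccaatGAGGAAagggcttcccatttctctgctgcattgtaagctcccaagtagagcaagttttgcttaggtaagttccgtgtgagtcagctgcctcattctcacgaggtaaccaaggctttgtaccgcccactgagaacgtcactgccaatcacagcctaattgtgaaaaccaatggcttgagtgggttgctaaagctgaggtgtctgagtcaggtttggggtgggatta
The RefSeq start of C1qc lies inside the GENCODE gene model, so its window covers part of that model. The letters stood 25 to 30 bases before the start of C1qb, 188 to 193 bases before that of C1qc and 220 to 225 bases before that of Cd68. They occur on either strand in 23.25% of all 32851 windows of this length. Of the 5 motifs searched on both strands (GAGGAA, the interferon-response core GAAANNGAA, the STAT motif TTCNNNGAA, the E-box CACGTG and the Maf recognition element TGCTGAC), the windows of Mertk, Gas6 and Cx3cr1 held none. Of the 3 windows of Apoe, 2 held GAGGAA, and 1 of these also held GAAANNGAA, which 7.13% of all windows hold. Promoter entries were found for 7 of the 9 genes; C1qa and Siglec1 are named only.

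Cd68 (chr11:69664213-69666153, minus strand) marks macrophages of all kinds and rose in both IFNα types. The lowest, median and highest levels were 43.4, 108 and 208 CPM in B16-GFP, 126, 169 and 243 CPM in B16-IFNA4 and 119, 164 and 211 CPM in B16-IFNA9 tumors. All 10 tumors of either IFNα type were above the control median, though the ranges overlapped. The increase was 0.54 ± 0.19 on the log2 scale in B16-IFNA4 (adjusted p = 0.0125) and 0.44 ± 0.19 in B16-IFNA9 (adjusted p = 0.0424), and B16-IFNA9 minus B16-IFNA4 was -0.09 ± 0.18, with a 95% interval of the ratio from 0.729 to 1.204. The B16-IFNA9 call was lost when any 1 of 10 tumors was left out, B16-GFP 2, 5, 6, 7 or 10 or B16-IFNA9 2, 3, 6, 7 or 8, with adjusted p up to 0.08 and, without B16-GFP tumor 7, a difference of 0.35 (adjusted p = 0.0617).

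Relative to Cd68 of the same tumor, the C1q chains were lower in the IFNα types. The log2 ratio of C1qa to Cd68 was 0.86 (lowest), 1.2 (median) and 1.63 (highest) in B16-GFP, -0.02, 0.08 and 0.59 in B16-IFNA4 and 0.33, 0.72 and 1.06 in B16-IFNA9 tumors. For C1qc the ratio was 0.16, 0.46 and 0.95 in B16-GFP, -0.90, -0.62 and -0.25 in B16-IFNA4 and -0.70, -0.20 and 0.26 in B16-IFNA9 tumors. All 10 B16-IFNA4 tumors lay below all 10 B16-GFP tumors in this ratio for each of C1qa, C1qb and C1qc, with the B16-IFNA9 tumors between them and overlapping both. Mean differences from B16-GFP were -0.99, -0.87 and -1.09 in B16-IFNA4 and -0.46, -0.50 and -0.71 in B16-IFNA9. The same lack of overlap, lower against Cd68, was found for 8.57% of all genes and higher for 3.05%. In B16-IFNA9 these shares were 0.955% and 1.85% against B16-GFP and 0.553% and 0.289% against B16-IFNA4. The ratio does not depend on how libraries were scaled. It was chosen after the values were seen and has no test, and it depends on the second gene: with Siglec1 or Itgam in place of Cd68 the B16-IFNA4 and B16-GFP tumors again did not overlap for any of the 3 chains, with the B16-IFNA4 tumors lower. That was so for 12.4% of all genes against Siglec1 and 19.5% against Itgam, and 1.41% and 2.17% lay wholly higher. With Csf1r, the receptor that macrophages need to survive, they overlapped and the difference from B16-GFP was smaller (C1qa -0.21).

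**Figure D2:**
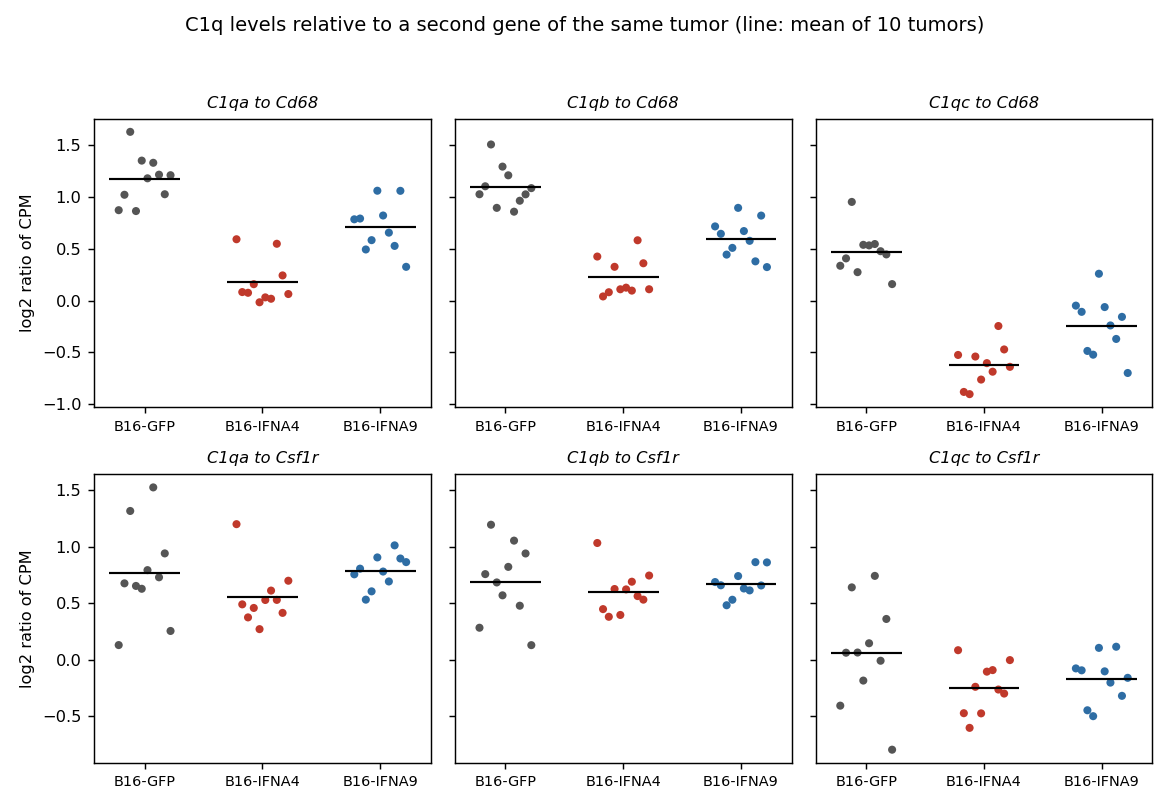
Log2 ratio of the CPM of C1qa, C1qb and C1qc to that of Cd68 (top) and Csf1r (bottom) in each tumor, with the mean of 10 tumors per type as a line. Against Cd68 the highest B16-IFNA4 value for C1qa, 0.59, is below the lowest B16-GFP value, 0.86, and against Csf1r the types overlap in all 3 panels.

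A macrophage reference, the mean log2 CPM of Csf1r and Itgam, was used in the same way with a test. Other genes planned for this reference were not used here. Relative to it, C1qa (-0.79), C1qb (-0.67) and C1qc (-0.89) were each lower in B16-IFNA4 than in B16-GFP tumors (two-sided permutation test, adjusted p = 0.0009 each, over 27 tests), as was Apoe (-0.74, adjusted p = 0.00693), and Siglec1 (0.81, adjusted p = 0.00101) and Cx3cr1 (0.58, adjusted p = 0.00527) were higher. In B16-IFNA9 against B16-GFP, C1qa (-0.49, adjusted p = 0.0116), C1qb (-0.52, adjusted p = 0.0023), C1qc (-0.74, adjusted p = 0.00309) and Apoe (-0.84, adjusted p = 0.00969) were lower and Siglec1 was higher (0.48, adjusted p = 0.0116). Between the IFNα types the chains did not pass (C1qa 0.30, adjusted p = 0.0507), and Cd68 (-0.23, adjusted p = 0.0138) and Siglec1 (-0.33, adjusted p = 0.00178) were lower in B16-IFNA9. These calls depend on which genes make up the reference, and its 2 genes did not move together. Itgam, an integrin chain that other leukocytes carry too, was at 0.95 ± 0.20 and Csf1r at -0.28 ± 0.18 in B16-IFNA4 minus B16-GFP. With Csf1r alone none of the lower calls remained in B16-IFNA4 (C1qa -0.21, adjusted p = 0.293; C1qb -0.09, adjusted p = 0.522; C1qc -0.31, adjusted p = 0.123) or in B16-IFNA9 (C1qc -0.23, adjusted p = 0.254), and 5 and 4 genes were higher in the 2 types. With both reference genes but without B16-GFP tumor 7, the calls given for both genes were kept and 2 were added, Cd68 higher in B16-IFNA4 than in B16-GFP (0.25, adjusted p = 0.0327) and C1qa higher in B16-IFNA9 than in B16-IFNA4 (0.30, adjusted p = 0.0474).

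**Figure D3:**
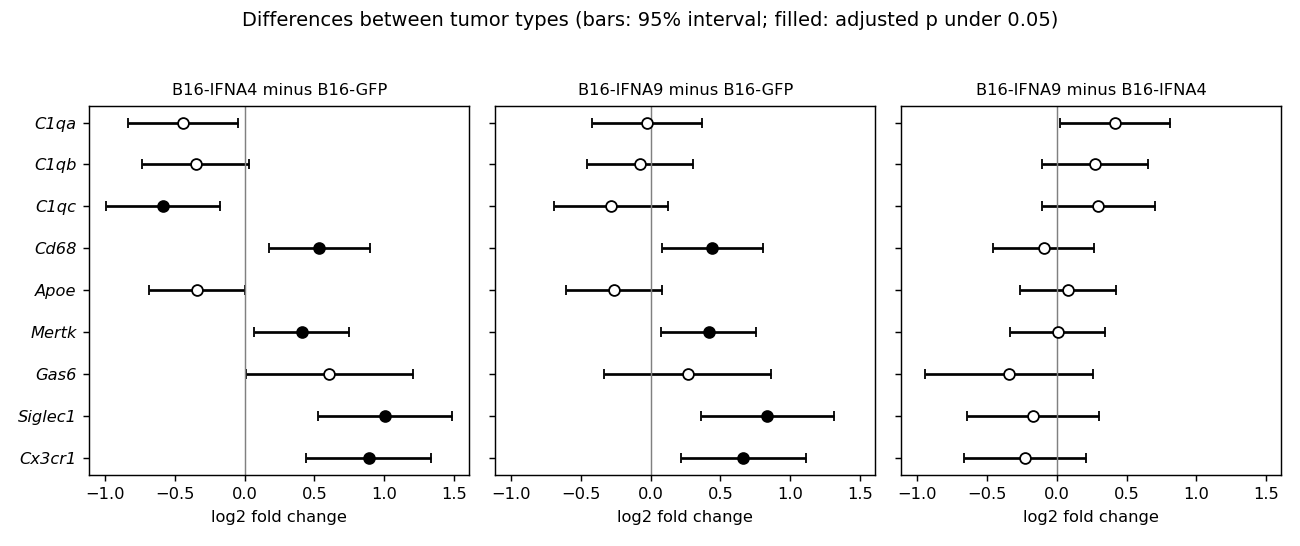
Log2 fold change of each of the 9 genes in the 3 comparisons with its 95% interval, filled where the adjusted p was below 0.05. Siglec1, Cx3cr1, Cd68 and Mertk are filled to the right of 0 in both comparisons with B16-GFP, C1qc is filled to the left in 1, and none is filled between the IFNα types.

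Siglec1 (chr2:131069220-131086765, minus strand) had the largest difference of the 9. Its lowest, median and highest levels were 18.6, 81.6 and 213 CPM in B16-GFP, 149, 185 and 247 CPM in B16-IFNA4 and 107, 160 and 264 CPM in B16-IFNA9 tumors. Control tumors spread over the widest range and only the highest of them lay within the B16-IFNA4 range. The increase was 1.01 ± 0.24 on the log2 scale in B16-IFNA4 (adjusted p = 0.000672) and 0.84 ± 0.24 in B16-IFNA9 (adjusted p = 0.0046), and each was called in all 30 fits that left out 1 tumor. Of all 50-base stretches of its exons, 1.33% occur in other genes. Within types, Siglec1 followed the macrophage reference in B16-GFP (r = 0.926, permutation p = 0.00012, adjusted p = 0.000771; rho = 0.842, adjusted p = 0.0138), B16-IFNA4 (r = 0.872, permutation p = 0.00151, adjusted p = 0.00353; rho = 0.770, adjusted p = 0.0307) and B16-IFNA9 tumors (r = 0.847, permutation p = 0.00156, adjusted p = 0.00353; rho = 0.818, adjusted p = 0.0168). Without the 2 tumors farthest from the median of the reference these r were 0.833, 0.715 and 0.767. With the mean of 9 interferon-stimulated genes, all 9 of which rose in both IFNα types, its r was 0.726 in B16-GFP (permutation p = 0.0244, adjusted p = 0.0458; rho = 0.636, adjusted p = 0.0958), 0.655 in B16-IFNA4 (permutation p = 0.0411, adjusted p = 0.0638; rho = 0.721, adjusted p = 0.0485) and -0.16 in B16-IFNA9 tumors (permutation p = 0.664, adjusted p = 0.688; rho = -0.05, adjusted p = 0.931). Without the 2 tumors farthest from the median of these genes r was 0.657, 0.587 and 0.428. Of 7 other Siglec family genes tested, 5 rose and 1 fell in B16-IFNA4 tumors and 2 rose in B16-IFNA9, where 31.3% of all genes rose and 34.1% fell in the first and 26.9% rose in the second. Siglecf, found on eosinophils and some macrophages, rose in both (1.83 ± 0.33 and 1.56 ± 0.34), and Siglech of plasmacytoid dendritic cells rose in B16-IFNA4 (1.7 ± 0.31), was not called in B16-IFNA9 (0.70 ± 0.31, adjusted p = 0.0544) and was lower in B16-IFNA9 than in B16-IFNA4 tumors by the direct test (-0.999 ± 0.30, adjusted p = 0.0176).

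Cx3cr1 (chr9:119901616-120069879, minus strand) was the least abundant of the 9, with 0.535, 2.62 and 4.37 CPM (lowest, median and highest) in B16-GFP, 2.96, 4.14 and 6.04 CPM in B16-IFNA4 and 1.78, 3.75 and 5.37 CPM in B16-IFNA9 tumors. It was higher than the control median in all 10 B16-IFNA4 and in 9 of 10 B16-IFNA9 tumors. Cx3cr1 rose by 0.89 ± 0.23 (adjusted p = 0.00115) and 0.66 ± 0.23 (adjusted p = 0.0144) on the log2 scale, in every fit that left out 1 tumor. Of genes of cells known to carry it, all 5 NK cell genes were higher in both IFNα types (summed level 3.39 to 14.7 CPM in B16-GFP, 55.6 to 177 in B16-IFNA4 and 41.5 to 132 in B16-IFNA9), where 31.3% and 26.9% of all genes were. Of 6 nonclassical monocyte genes 5 were higher in B16-IFNA4, where 31.3% of all genes were higher. In B16-IFNA9, 3 were higher and 1 (Eno3) lower, where 26.9% of all genes were higher and 28.9% lower. The summed level of the 6 was 178 to 664 CPM in B16-GFP (median 284), 421 to 691 in B16-IFNA4 (median 543.5) and 166 to 509.7 in B16-IFNA9 (median 281). Much of this sum was Eno3, at a mean of 253, 263 and 129 CPM in the 3 types. Ace, the next in level, averaged 59.2, 122 and 78.7 CPM. Of 3 skeletal muscle genes, Acta1 and Ckm were also lower in B16-IFNA9. None of either list was at 0 throughout a type, and the part of these genes in the Cx3cr1 result was not tested. Within types its level had no relation past the threshold with the NK cell genes (r = 0.446, -0.18 and -0.15, permutation p = 0.197, 0.613 and 0.672; rho = 0.188, -0.25 and -0.08, permutation p = 0.605, 0.489 and 0.840), whereas with the macrophage reference it did in B16-GFP (r = 0.913, permutation p = 0.00097, adjusted p = 0.00257; rho = 0.782, adjusted p = 0.0263; r = 0.516 without tumors 2 and 7). That relation did not pass in B16-IFNA4 (r = -0.16, permutation p = 0.672, adjusted p = 0.688; rho = 0.0061, adjusted p = 1) or B16-IFNA9 tumors (r = 0.103, permutation p = 0.778, adjusted p = 0.778; rho = -0.03, adjusted p = 0.968). Cx3cr1 shares 78 exon bases with Gm33858 on the other strand. Of its ligand and the enzymes that release it, Cx3cl1, Adam10 and Adam17, 0 of 3 were called by edgeR in any comparison. Of all genes, 65.4% and 55.7% were called in B16-IFNA4 and B16-IFNA9 against B16-GFP and 17.8% between the IFNα types. For these 3 genes the count was also 0 by DESeq2 and at an unadjusted edgeR p below 0.05.

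Mertk (chr2:128698956-128802894, plus strand) rose modestly. Its lowest, median and highest levels were 7.05, 28.8 and 39.7 CPM in B16-GFP, 27.0, 35.4 and 50.6 CPM in B16-IFNA4 and 23.9, 37.7 and 46.2 CPM in B16-IFNA9 tumors. Of each IFNα type only 3 tumors exceeded all controls. The increase was 0.41 ± 0.17 in B16-IFNA4 (adjusted p = 0.0395) and 0.42 ± 0.17 in B16-IFNA9 (adjusted p = 0.0422), and the difference between the IFNα types was 0.01 ± 0.17, with a 95% interval of the ratio from 0.794 to 1.27. Each of the increases was called in 20 of the 30 fits that left out 1 tumor. The B16-IFNA4 call was lost, at adjusted p up to 0.0837, without B16-GFP 2, 3 or 6, B16-IFNA4 1, 2, 3, 5 or 10 or B16-IFNA9 1 or 9, and the B16-IFNA9 call, at adjusted p up to 0.0719, without B16-GFP 2, 3, 6 or 9 or B16-IFNA9 2, 3, 4, 6, 7 or 9. Without B16-GFP tumor 7, the lowest by far, both increases were smaller and both were called (0.31 in each, adjusted p = 0.0260 and 0.0338).

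Gas6 (chr8:13465374-13494490, minus strand), the ligand of Mertk and Axl, varied most of the 9 among the control tumors, with an SD of 63.7% of the mean. Its lowest, median and highest levels were 56.9, 243 and 584 CPM in B16-GFP, 170, 367 and 588 CPM in B16-IFNA4 and 100.3, 282 and 513 CPM in B16-IFNA9 tumors. The B16-IFNA4 minus B16-GFP difference of 0.61 ± 0.31 did not pass (adjusted p = 0.0811), nor did that of B16-IFNA9 (0.27 ± 0.31, adjusted p = 0.471). Without B16-GFP tumor 3, which had the highest control level, B16-IFNA4 was called higher (0.88, adjusted p = 0.00893). It was also called higher by DESeq2, with library totals and with the replicate number as a block. The 5 genes closest to Gas6 over the 30 tumors after the type means were removed were Cyp2f2, Thy1, Tgm2, Il4ra and Ngfr (r = 0.868 to 0.901), and Gas6 followed the mean of 5 fibroblast genes in B16-GFP tumors (r = 0.882, permutation p = 0.0002, adjusted p = 0.000945; rho = 0.867, adjusted p = 0.00871; r = 0.783 without the 2 tumors farthest from the median). In B16-IFNA4 (r = 0.343, permutation p = 0.336; rho = 0.552, permutation p = 0.103) and B16-IFNA9 tumors (r = 0.597, permutation p = 0.0683; rho = 0.576, permutation p = 0.0880) that relation did not pass, and without the 2 farthest tumors r was 0.744 and 0.229. The part of fibroblasts in the level was not tested; 1 of 5 fibroblast genes was called higher in each comparison with B16-GFP, against 31.3% and 26.9% of all genes, and none was at 0. Gas6 overlaps Tmem255b on the other strand by 34 exon bases.

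Among 22 other genes of dying cell uptake, 10 rose and 6 fell in B16-IFNA4 and 9 rose and 6 fell in B16-IFNA9, with medians of 0.37 and 0.11 on the log2 scale. In all, 16 and 15 of the 22 were called, where 65.4% and 55.7% of all genes were, so the counts are near the background. Axl, the TAM receptor best known to be interferon-inducible, rose by 1.28 ± 0.14 (adjusted p = 8.16e-09) in B16-IFNA4, where all 10 tumors exceeded all controls, and by 1.04 ± 0.14 (adjusted p = 6.53e-07) in B16-IFNA9. Tyro3, the third TAM receptor (0.33 ± 0.16, adjusted p = 0.0661), and Pros1, the other TAM ligand (0.09 ± 0.12, adjusted p = 0.530), were not called in B16-IFNA4. The scavenger receptor Scarb1, which binds phosphatidylserine and lipoprotein, fell by 1.21 ± 0.13 in B16-IFNA4 and by 1.08 ± 0.13 in B16-IFNA9. Its highest control level, 175 CPM against a control median of 105, was in B16-GFP tumor 7, where the melanocyte genes were also highest. The part of tumor cells in the Scarb1 level was not tested. Timd4, a phosphatidylserine receptor of resident macrophages, was higher in B16-IFNA9 than in B16-GFP (1.55 ± 0.23, adjusted p = 2.35e-06) and than in B16-IFNA4 tumors (1.05 ± 0.23, adjusted p = 0.00153).

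Apoe (chr7:19696109-19699188, minus strand) was the most abundant of the 9 per kilobase of exon, with means of 383, 302.5 and 320 CPM per kilobase in B16-GFP, B16-IFNA4 and B16-IFNA9 tumors. In CPM its lowest, median and highest levels were 437, 859 and 1090 in B16-GFP, 405, 660 and 912 in B16-IFNA4 and 377, 683 and 1082 in B16-IFNA9 tumors. The ranges overlapped, with 1 tumor of each IFNα type below all controls. B16-IFNA4 minus B16-GFP was -0.34 ± 0.17 (adjusted p = 0.0846) and B16-IFNA9 minus B16-GFP -0.26 ± 0.17 (adjusted p = 0.201), neither called. The first was called lower without B16-GFP tumor 7 (-0.39, adjusted p = 0.0343), and also without B16-GFP tumor 10 and without B16-IFNA4 tumor 8 (-0.41). The 5 genes closest to Apoe were Rnf208, Krt14, Gm7850, Lgals7 and Ppp1r13l (r = 0.909 to 0.925), of which Krt14 and Lgals7 are keratinocyte genes, and none of the 5 is a macrophage gene by the lists used. Of 3 keratinocyte genes, 2 (Krt5 and Krt10) were higher in B16-IFNA4 than in B16-GFP and 0 in B16-IFNA9 by edgeR, by DESeq2 and at an unadjusted edgeR p below 0.05, against 31.3% and 26.9% of all genes called higher by edgeR. Their summed level was 678 to 5183, 4299 to 7183 and 1234 to 5905 CPM in the 3 types. Their part in the Apoe level was not tested. Over the tumors of a type, Apoe had no relation past the threshold with the macrophage reference in B16-IFNA4 (r = -0.30, permutation p = 0.396; rho = -0.33, permutation p = 0.348), B16-IFNA9 (r = -0.21, permutation p = 0.553; rho = -0.15, permutation p = 0.683) or B16-GFP tumors (r = 0.646, permutation p = 0.0363, adjusted p = 0.0605; rho = 0.709, adjusted p = 0.0520), where r was 0.807 without the 2 tumors farthest from the median.

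Of 16 other lipid-handling genes of macrophages tested, 6 rose and 4 fell in B16-IFNA4 and 5 rose and 5 fell in B16-IFNA9 tumors, with medians of 0.02 in both. These counts are near those of all genes, of which 31.3% were higher and 34.1% lower in B16-IFNA4 and 26.9% and 28.9% in B16-IFNA9. Abca1, which exports cholesterol to apolipoproteins, rose (0.76 ± 0.15 and 0.48 ± 0.15), as did Tyrobp, the signaling partner of Trem2 (0.82 ± 0.17 and 0.50 ± 0.17). Trem2, an Apoe receptor, was lower in B16-IFNA9 (-0.62 ± 0.20, adjusted p = 0.0104) and was not called in B16-IFNA4 (-0.40 ± 0.20, adjusted p = 0.0803). Gpnmb fell by 1.00 ± 0.14 and 0.55 ± 0.14 in the 2 types and is also a pigment-cell gene, and all 3 melanocyte genes (Tyr, Tyrp1 and Mitf) fell with it in both.

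By kilobase of exon the order of the 9 genes was the same in the 3 types, except that Gas6 came just before Cd68 in B16-IFNA4. Apoe came first, by less than its SD over C1qa in B16-IFNA9 tumors (320 ± 97.7 against 255 ± 49.0 CPM per kilobase), followed by C1qa and C1qb, whose means lay within 1 SD of each other in each type although C1qa was the higher in all 10 B16-IFNA9 tumors (lowest ratio 1.05). Then came Cd68 and Gas6, in either order, then C1qc, and last Siglec1, Mertk and Cx3cr1. Cd68 (94.8 ± 40.1 CPM per kilobase), Gas6 (90.7 ± 57.8) and C1qc (87.0 ± 41.0) lay within 1 SD of each other in B16-GFP, whereas in B16-IFNA4 C1qc (58.2 ± 13.5) lay below Gas6 (138 ± 51.4) and Cd68 (137.5 ± 28.9).

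The C1q genes, Cd68 and Siglec1 varied together from tumor to tumor more than the other 4 genes did. These r are a description, with the mean of each tumor type removed and no test. Over the 30 tumors with type means removed, r of C1qb was 0.919 with Cd68 and 0.854 with Siglec1, and r of Cd68 with Siglec1 was 0.921. Without B16-GFP tumor 7, with the type means of all 30 tumors kept, these were 0.876, 0.747 and 0.880. With the means taken anew over the other 29 tumors, as for the closest genes below, r of Cd68 with Siglec1 was 0.875. The r of Mertk with the other genes were lower without that tumor, with the means of all 30 kept. Its r with Siglec1 went from 0.688 to 0.357 and with C1qb from 0.573 to 0.151. Its r with the macrophage reference in B16-GFP tumors, 0.840 (permutation p = 0.0313, adjusted p = 0.0553; rho = 0.321, adjusted p = 0.473), was -0.11 without both tumors 2 and 7. In B16-IFNA9 tumors the relation of Mertk to the reference was 0.911 (permutation p = 0.00037, adjusted p = 0.00128, and rho = 0.830, adjusted p = 0.0162) and 0.703 without the 2 tumors farthest from the median. In B16-IFNA4 tumors it was 0.678 (permutation p = 0.032, adjusted p = 0.0553, and rho = 0.758, adjusted p = 0.0338) and 0.438 without the 2 farthest tumors. The genes closest to the mean of the C1q chains were Cfp, the complement regulator properdin (r = 0.961, and 0.954 without B16-GFP tumor 7), Unc93b1, Vsir, P2ry6 and Cd68. Those closest to Cd68 were Laptm5, Hcls1, Tmem106a, Spi1 and Siglec1, and those closest to Siglec1 were Cd300ld2, Laptm5, Cd68, Pla2g15 and Rgl1. The genes closest to Mertk were Frmd4b, Naaladl2, Kcnk6, Bach1 and Psd3 (r = 0.940 to 0.954, and 0.829 to 0.859 without B16-GFP tumor 7). Those closest to Cx3cr1, at lower r (0.825 to 0.831), were Gm12606, Slc24a3, Ggta1, Aknad1 and Slc6a4. Without B16-GFP tumor 7 the r of the 5 genes named for Cx3cr1 ran from 0.675 to 0.710. Of the 5 genes named for each, those still among the 5 closest without that tumor were 1 for Mertk, 3 for Cx3cr1, the C1q mean and Apoe, and 4 for Cd68, Siglec1 and Gas6, with Cd68 11th for the C1q mean and Siglec1 11th for Cd68. Spi1 rose by 1.23 ± 0.20 in B16-IFNA4 and by 0.80 ± 0.20 in B16-IFNA9, while Cfp, like C1qa and C1qb, was called in neither (-0.40 ± 0.21 and 0.00 ± 0.21).

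**Figure D4:**
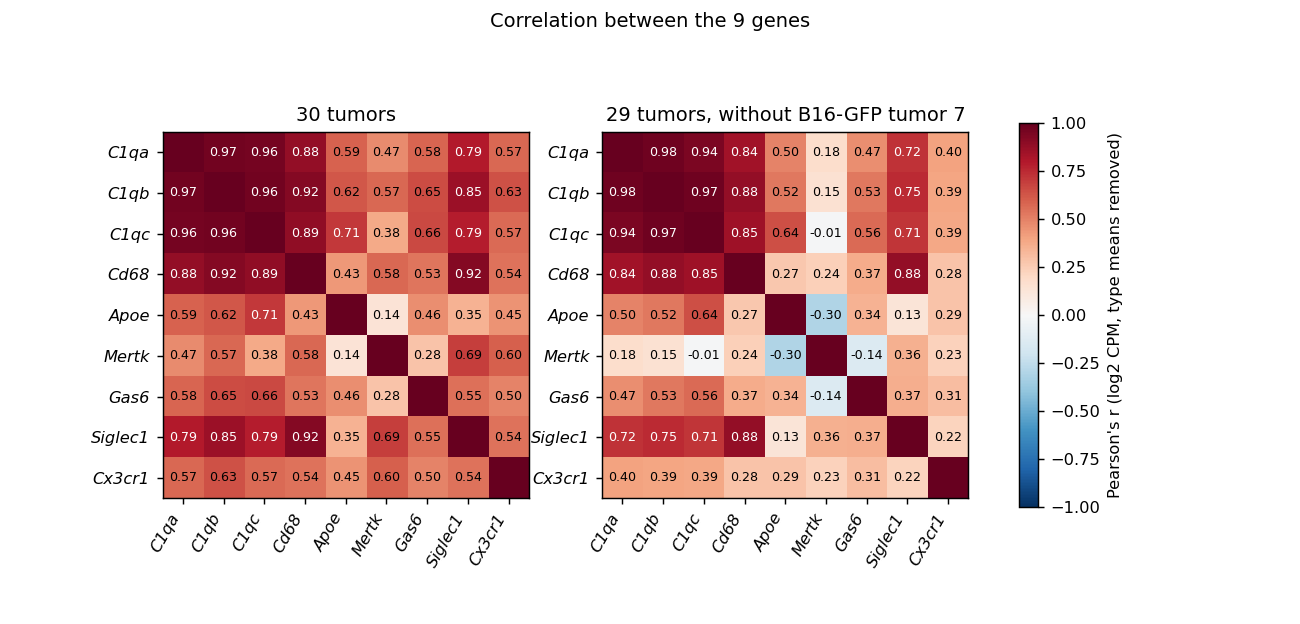
Pearson's r between the 9 genes (log2 CPM with the mean of each tumor type removed) over 30 tumors and over the 29 without B16-GFP tumor 7. The type means removed are those of all 30 tumors in both panels. The C1q genes, Cd68 and Siglec1 keep r of 0.71 or more with each other in both panels, and the r of Mertk with every other gene is lower in the second.

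Most other complement genes were higher in IFNα tumors, unlike the C1q chains. Of 30 other complement genes tested, 20 rose and 4 fell in B16-IFNA4 and 17 rose and 4 fell in B16-IFNA9, with medians of 0.95 and 0.89 against 0.0092 and -0.0031 for all genes. Of all genes 31.3% rose and 34.1% fell in B16-IFNA4 and 26.9% and 28.9% in B16-IFNA9. The proteases that C1q activates rose in both types: C1ra by 1.19 ± 0.16 and 1.10 ± 0.16, and C1s1 by 0.93 ± 0.20 and 0.90 ± 0.20. Their substrates rose with them, C2 by 1.72 ± 0.10 (109 against 33.1 CPM) and 1.40 ± 0.10 and C4b by 1.30 ± 0.18 and 1.06 ± 0.18, and so did C3 (1.21 ± 0.25 and 1.16 ± 0.25) and the C1 inhibitor Serping1 (1.39 ± 0.20 and 1.12 ± 0.20). C4a and C4b, and C1ra and C1rb, are near-identical pairs whose reads may be split. The alternative pathway protease Cfb rose by 1.81 ± 0.18 and 1.17 ± 0.18 and the anaphylatoxin receptor C3ar1 by 2.15 ± 0.19 and 1.40 ± 0.18. Between the IFNα types 2 complement genes were higher and 6 lower in B16-IFNA9, against 10.5% and 7.25% of all genes, and the largest difference was that of Vsig4, the complement receptor of resident macrophages.

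Genes known from resident macrophages differed between the IFNα types by the direct test, which no C1q chain passed. C1qa moved the same way (0.42 ± 0.20, adjusted p = 0.155). It was called without B16-IFNA4 tumor 1 (0.56, adjusted p = 0.0425) and with only the tumors compared. The contrast of these resident macrophage genes with the C1q chains was not tested. Of 22 such genes outside the 9, 13 were lower and 2 (Maf and Spic) higher in B16-IFNA4 than in B16-GFP, with a median of -0.73, whereas 4 were lower and 3 (Lyve1, Maf and Timd4) higher in B16-IFNA9, with a median of -0.14. Of all genes 34.1% were lower and 31.3% higher in B16-IFNA4 and 28.9% and 26.9% in B16-IFNA9. By the direct test 13 of 22 were higher in B16-IFNA9 than in B16-IFNA4 and 0 lower by edgeR or DESeq2 (1 lower at an unadjusted edgeR p below 0.05, and 1 called when only those tumor types were fitted), with a median of 0.71, against 10.5% of all genes higher. Vsig4 fell by 2.43 ± 0.39 in B16-IFNA4, from 3.67 to 0.674 CPM, and was 2.36 ± 0.39 higher in B16-IFNA9 than in B16-IFNA4 (adjusted p = 7.87e-05). Lyve1, the hyaluronan receptor of perivascular macrophages, fell by 0.68 ± 0.24 in B16-IFNA4, rose by 0.61 ± 0.24 in B16-IFNA9 and differed between them by 1.29 ± 0.25 (adjusted p = 0.000382). The mannose receptor Mrc1 fell by 0.78 ± 0.21 in B16-IFNA4 (321 to 187 CPM), was at -0.05 ± 0.21 in B16-IFNA9 and was 0.73 ± 0.21 higher in B16-IFNA9 than in B16-IFNA4 (adjusted p = 0.0143). The folate receptor Folr2 fell by 0.65 ± 0.24 in B16-IFNA4 and was 0.69 ± 0.24 higher in B16-IFNA9 than there (adjusted p = 0.0404). Fcna, Cbr2 and Ccl8 fell in B16-IFNA4 by 1.82 ± 0.27, 1.61 ± 0.22 and 1.60 ± 0.21, and each was higher in B16-IFNA9 than in B16-IFNA4 (1.497 ± 0.27, 0.74 ± 0.21 and 0.80 ± 0.21). The hemoglobin scavenger receptor Cd163 was called only between the IFNα types (0.77 ± 0.26, adjusted p = 0.0337). Lyve1 and Stab1 are also endothelial genes, Vsig4 was counted among the complement genes too, and 4 of 5 endothelial genes were lower and 1 higher in B16-IFNA4, 4 of 5 lower in B16-IFNA9 and 3 of 5 lower in B16-IFNA9 than in B16-IFNA4, against 7.25% of all genes (summed level 163 to 403, 202 to 319 and 97.9 to 196 CPM in the 3 types, none at 0). Their part in the result was not tested. Without B16-GFP tumor 7, a check added after the data were seen, 14 of the 22 genes were lower and 2 higher in B16-IFNA4, 8 lower and 2 higher in B16-IFNA9, and 13 higher in B16-IFNA9 than in B16-IFNA4.

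**Figure D5:**
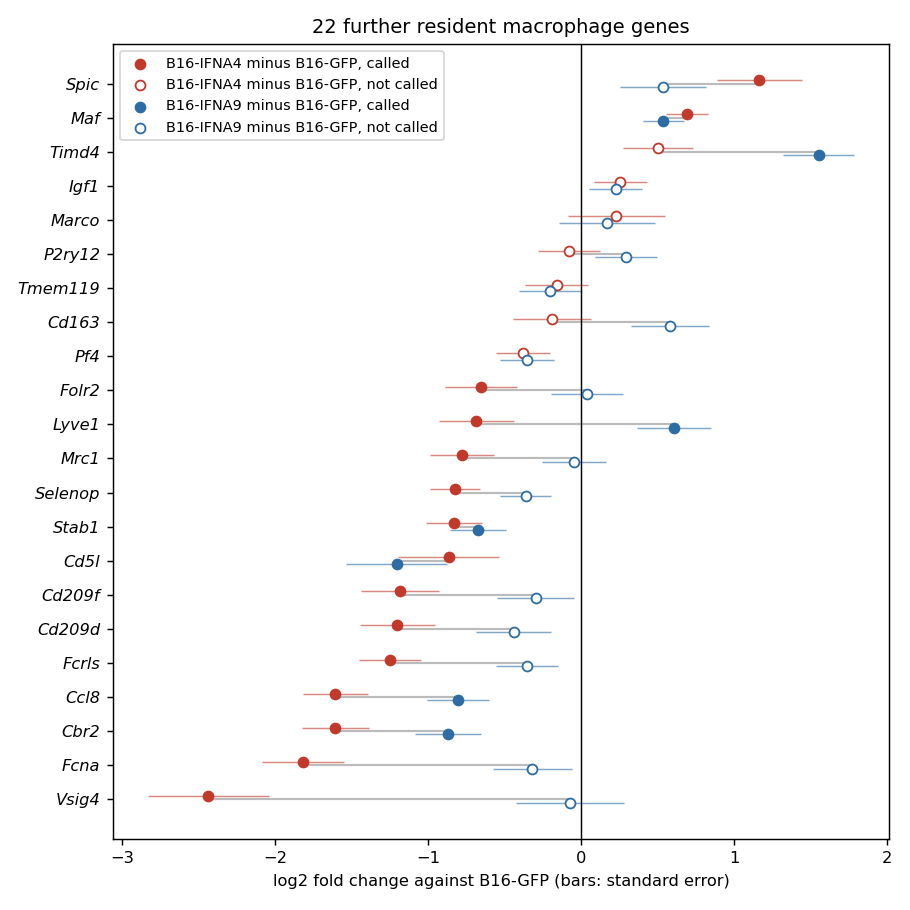
Log2 fold change against B16-GFP, with SE bars, of 22 further resident macrophage genes in B16-IFNA4 (red) and B16-IFNA9 (blue), filled where called. Most red points lie left of their blue partners, with Vsig4 at -2.43 and -0.07 and Lyve1 at -0.68 and 0.61.

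Of 9 classical monocyte genes, 7 rose in B16-IFNA4 (median 1.91) and 6 in B16-IFNA9 (median 0.78), against 31.3% and 26.9% of all genes, and 5 were lower in B16-IFNA9 than in B16-IFNA4, against 7.25% of all genes. Ly6c2 went from 88.8 CPM in B16-GFP to 842 in B16-IFNA4 and 454 in B16-IFNA9, and Ccr2, the receptor that brings monocytes out of the marrow, from 80.1 to 300.3 and 252 CPM. The summed level of the 9 ran from 611 to 2348 CPM in B16-GFP, 2339 to 4178 in B16-IFNA4 and 1622 to 2707 in B16-IFNA9. Fn1, called in neither comparison with B16-GFP, made up much of this sum, at a mean of 1106, 1257 and 1048 CPM in the 3 types. None of the 9 was at 0, and their part in the results for Cd68, Siglec1 and C1q was not tested. Of 10 lysosome and phagocyte genes beside Cd68, 8 rose and 2 (Ctsd and Lamp1) fell in B16-IFNA4, and 6 rose and the same 2 fell in B16-IFNA9, so that 10 and 8 of 10 were called against 65.4% and 55.7% of all genes.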

How the data were processed

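Bulk RNA-seq was analysed from 30 whole B16 tumors (10 B16-GFP, 10 B16-IFNA4, 10 B16-IFNA9). The authors prepared stranded mRNA libraries, sequenced single 50-base reads, checked them with FastQC 0.11.3, aligned them with HISAT2 2.0.4 and used summarizeOverlaps for gene counts. These counts were deposited by the authors as raw values without normalization. The submitters' processing notes name the genome mm10 and the study's methods name a different build, and the strand setting and annotation release are not given in the sources used here. Of 39676 identifiers, 39495 were found in GENCODE M21 (GRCm38), which gave symbols, coordinates and exon lengths, with promoter windows from RefSeq.

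Counts were fitted with edgeR 4.0.16 (TMM scaling, quasi-likelihood test, all 30 tumors in 1 model, minimum mean count 10, Benjamini-Hochberg over 15926 genes, threshold 0.05). Totals of 14598517 to 19788383 counts make counting error small beside tumor spread except for the lowest genes, and TMM factors ran from 0.768 to 1.097. CPM are TMM-scaled, and log2 CPM used a prior count of 2. Differences are log2 fold changes ± SE, and 95% intervals are 1.96 SE. Levels relative to the reference genes and correlations were tested with 100000 permutations, two-sided (smallest p 1e-05). Of the 5 genes planned for the reference, 2 were used; 2 were not analysed here for want of counts, and 1, with 1 gene of the complement list, is not reported here and was taken out after the data were seen. The code was tested on simulated data. The 9 genes and all gene lists were chosen with earlier results of these data known. Genes named are the 9, the genes of the lists and the 5 tested genes most correlated with the C1q mean and with each of the other 6 genes. Alternatives were DESeq2 1.42.0 and its size factors, library totals, no filter, filterByExpr, only the tumors compared, a replicate block, each tumor left out, a prior count of 0.5 and Csf1r alone as reference.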

Additional observations from a re-analysis of the deposited data

Results flagged for a closer look

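Among the 27 sets of 10 values (9 genes in 3 tumor types), 3 had a tumor far from the other 9 of its type on the log2 CPM scale, by a gap above Dixon's 95% critical value, where chance gives about 1 in 20, or 1.35. C1qa was highest in B16-IFNA4 tumor 1, at 8.52 against 7.23 to 7.86 in the others. Mertk was lowest in B16-GFP tumor 7, at 2.84 against 4.50 to 5.31. Cx3cr1 was lowest in B16-IFNA9 tumor 10, at 0.926 against 1.66 to 2.46.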

How the results depend on the processing

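The calls of Siglec1, Cx3cr1 and, in B16-IFNA4, Cd68 held under every alternative fit run. Cd68 in B16-IFNA9 (adjusted p = 0.0580 and 0.0615) and Mertk in B16-IFNA4 (0.0537 and 0.0594) and B16-IFNA9 (0.0613 and 0.0733) were lost with no filter and with only the tumors compared, so that 2 genes in place of 4 were higher in B16-IFNA9. With filterByExpr 2 genes were lower in B16-IFNA4 in place of 1, C1qa being added (adjusted p = 0.0419), and with only the tumors compared 1 gene, C1qa, was higher in B16-IFNA9 than in B16-IFNA4 (0.41, adjusted p = 0.0325). The cause was not tested.

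The replicate numbers did not pair the tumors: of 30 same-numbered pairs 4 had r above 0.1, with a median of -0.05. With the number as a block 0 genes were lower in B16-IFNA4 in place of 1 (C1qc -0.50, adjusted p = 0.0582), Gas6 was called higher there (0.76, adjusted p = 0.0314; also with library totals, 0.70, adjusted p = 0.0464, and DESeq2, 0.63, adjusted p = 0.0495), C1qa in B16-IFNA9 minus B16-GFP turned to 0.0333, and 5 resident macrophage genes in place of 3 were higher in B16-IFNA9. Signs near 0 also turned for Mertk in B16-IFNA9 minus B16-IFNA4 (-0.0062 with DESeq2 and with its size factors) and for C1qa (0.0793) and C1qb (0.0188) in B16-IFNA9 minus B16-GFP with library totals.

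With Csf1r alone as reference, 5 genes were higher and 0 lower in B16-IFNA4 (2 and 4 with both genes) and 4 higher and 0 lower in B16-IFNA9 (1 and 4), and C1qa (0.0205), Cd68 (0.48), Mertk (0.43) and Gas6 (0.32) in B16-IFNA9 minus B16-GFP changed sign. The log2 ratio to a second gene in B16-IFNA9 minus B16-GFP changed sign for C1qa with Csf1r (0.0203). With only the tumors compared, B16-IFNA9 against B16-IFNA4 had 1 resident macrophage gene lower in place of 0, 4 complement genes higher in place of 2 and 6 uptake genes lower in place of 3.

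Over the fits that left out 1 tumor, genes lower in B16-IFNA4 ran from 1 to 4, genes higher in B16-IFNA9 from 2 to 4 and genes higher in B16-IFNA9 than in B16-IFNA4 from 0 to 1 (1 without B16-IFNA4 tumor 1). C1qa ran from -0.11 to 0.0838 and C1qb from -0.18 to 0.0288 in B16-IFNA9 minus B16-GFP, and Mertk from -0.0354 to 0.0883 in B16-IFNA9 minus B16-IFNA4. Resident macrophage genes in B16-IFNA9 ran from 2 to 5 higher (5 without B16-GFP tumor 8) and 4 to 8 lower (8 without B16-GFP tumor 7), and from 0 to 1 lower than in B16-IFNA4 (1 without B16-GFP tumor 8). Against B16-IFNA4, uptake genes lower ran from 2 to 6 (6 without B16-GFP tumor 7) and lipid genes higher from 0 to 1 (0 without B16-IFNA9 tumor 10). Without B16-GFP tumor 7, Cd68 relative to the reference turned to 0.0179 in B16-IFNA9 minus B16-GFP, and 1 gene in place of 0 was higher in B16-IFNA9 than in B16-IFNA4. The checks of the lists and of the second gene were added after the data were seen. Depth limits the genes of few counts, such as Siglecf, with 0 to 14 counts in the B16-GFP tumors, and Vsig4, with 3 to 31 in B16-IFNA4.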
